A study of Mus musculus with 9 samples.

Results

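The 48 histone genes described here are all genes of a mouse embryonic stem cell array series whose platform symbols begin with H1f, H2a, H2b, H3c, H3f, H4c or H4f and that had at least 1 probe set assigned to a single gene. They were chosen by name, not by measured values, and make up 48 of the 22180 genes tested. Where a gene had several such probe sets, the one with the highest mean over the 9 arrays was used. By symbol, 25 of them (H1f1 to H1f5, H2ac, H2bc and H4c genes) belong to the replication-dependent class and the other 23 to the variant class. No H3c gene had a probe set of its own, nor did H3f3a, H3f3b, H1f0 or H1f4, so that histone H3 enters below only through probe sets shared by several genes.

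The cells were mouse embryonic stem cells of the NG4 line, which is of strain 129/Sv and carries a Nanog-GFP reporter, and grew on gelatin in the presence of LIF, a cytokine that holds them in the undifferentiated state. They received a pLKO.1-based lentivirus with a hairpin against Phf5a (shPhf5a), a hairpin against Paf1 (shPaf1) or a control hairpin (shControl), went through 72 h of selection in 2 μg/mL puromycin, and gave 3 Affymetrix arrays per group. Phf5a belongs to the SF3b splicing complex and has a PHD finger, Paf1 names a complex that travels with elongating RNA polymerase II, and the stated subject is the role of Phf5a in elongation, so that the question is how histone genes responded to each loss. Each target was hit with 1 hairpin, so that effects of the hairpin on other targets cannot be told apart from effects of the knockdown, and the labels do not say that replicates were separate cultures, so that the p-values refer to the spread among these arrays, possibly a technical one.

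Histones are the proteins around which DNA is wound. The replication-dependent genes lie in clusters, have no introns, are transcribed mainly in S phase and give messenger RNAs that end in a stem-loop in place of a poly(A) tail; the stem-loop binding protein Slbp carries these RNAs through processing and translation. Variant histones such as H2A.Z, H2A.X and H3.3 come from scattered genes, are mostly made outside S phase too, and replace the standard histones at particular places in chromatin. Embryonic stem cells divide fast and spend much of their cycle in S phase. The arrays were made with whole-transcript labelling, which does not depend on a poly(A) tail, and the values are log2 signals of probe sets, so that levels of different genes are not compared as amounts of RNA, and bright or dim refers to the signal of a probe set alone.

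The promoters below are those of 3 replication-dependent genes and 2 variant-class genes on which the results turn. They were chosen after the genes' values were seen. Each window runs from 250 bases before to 50 bases after the annotated start and is 300 bases long, taken from RefSeq on build GRCm38.p6, 5′ to 3′ in the direction of the gene. Capitals mark matches, on either strand, to the TATA box letters TATAAA, the CCAAT box letters CCAAT and the octamer letters ATTTGCAT. None overlapped another in these windows.
H2ac1, chr13:23934187-23934486, plus strand: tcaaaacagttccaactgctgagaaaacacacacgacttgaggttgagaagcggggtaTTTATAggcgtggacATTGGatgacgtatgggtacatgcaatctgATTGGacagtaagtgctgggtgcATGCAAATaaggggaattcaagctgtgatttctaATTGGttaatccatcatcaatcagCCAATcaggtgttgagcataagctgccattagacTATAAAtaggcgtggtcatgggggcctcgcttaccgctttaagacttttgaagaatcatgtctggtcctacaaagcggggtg
H2ac20, chr3:96220831-96221130, minus strand: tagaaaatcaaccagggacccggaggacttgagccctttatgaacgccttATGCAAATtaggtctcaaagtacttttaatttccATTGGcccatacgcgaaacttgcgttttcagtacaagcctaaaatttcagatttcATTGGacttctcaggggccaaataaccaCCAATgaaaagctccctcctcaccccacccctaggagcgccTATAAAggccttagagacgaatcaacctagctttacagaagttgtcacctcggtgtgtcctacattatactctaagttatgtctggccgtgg
H2bc18, chr3:96269450-96269749, plus strand: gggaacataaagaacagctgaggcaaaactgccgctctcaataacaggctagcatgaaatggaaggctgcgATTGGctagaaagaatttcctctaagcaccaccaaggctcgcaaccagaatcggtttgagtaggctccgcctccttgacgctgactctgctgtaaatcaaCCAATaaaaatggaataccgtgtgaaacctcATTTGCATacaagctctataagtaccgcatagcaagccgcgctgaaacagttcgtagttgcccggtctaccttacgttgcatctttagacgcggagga
H1f10, chr6:87981433-87981732, minus strand: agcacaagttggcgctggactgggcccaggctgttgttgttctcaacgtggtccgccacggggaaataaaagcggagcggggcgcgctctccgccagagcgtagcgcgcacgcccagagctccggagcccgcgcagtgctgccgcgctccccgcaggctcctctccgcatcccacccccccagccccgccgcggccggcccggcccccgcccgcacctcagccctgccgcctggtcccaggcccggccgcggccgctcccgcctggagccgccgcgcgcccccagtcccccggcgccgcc
H4f16, chr6:136804382-136804681, minus strand: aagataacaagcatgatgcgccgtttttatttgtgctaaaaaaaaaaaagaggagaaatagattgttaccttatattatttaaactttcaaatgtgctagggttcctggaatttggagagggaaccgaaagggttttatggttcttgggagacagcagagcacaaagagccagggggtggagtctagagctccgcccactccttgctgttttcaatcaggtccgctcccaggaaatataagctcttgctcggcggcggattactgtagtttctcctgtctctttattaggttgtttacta
H2ac1 held 7 matches, among them a TATA box that begins 32 bases before the start, H2ac20 held 5 with a TATA box at 42 bases before the start, and H2bc18 held 3 with an octamer at 48 bases before the start. The windows of H1f10 and H4f16 held none of these letters. Of the 48 genes 43 were found in the promoter table. TATAAA was present in 16 of 23 replication-dependent windows (69.6%), in 2 of 20 variant windows (10%) and in 15.7% of the 27025 windows of all genes. CCAAT was present in 18 of 23 (78.3%), 11 of 20 (55.0%) and 41.1%. ATTTGCAT, the octamer bound by Oct factors, was present in 8 of 23 (34.8%), 1 of 20 (5.0%) and 1.97%. The cyclic AMP response letters TGACGTCA were present in 2 of 23 (8.70%), 0 of 20 and 2.03%. These matches are a description of letters in a window, and a window without a match says nothing about the factor.

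Both hairpins lowered their target. Phf5a signal stood at 34.4%, 55.9% and 39.6% of the control mean on the shPhf5a arrays, and Paf1 signal stood at 37.7%, 38.9% and 38.0% of it on the shPaf1 arrays. Each target was also lower under the other hairpin. Phf5a stood at 64.3%, 62.0% and 76.2% on the shPaf1 arrays (log2 change -0.57, adjusted p = 0.0183), and Paf1 at 76.5%, 95.7% and 81.8% on the shPhf5a arrays (-0.25, adjusted p = 0.0267). Replicate 2 of shPhf5a was the weakest Phf5a knockdown. Among the 25 genes called in shPhf5a it was the shPhf5a array nearest to the controls for H1f1, H1f5, H1f10, H2ac12, H2ac15, H2ac20, H2ac21, H2af-ps2, H2ax, H2az1, H2az2, H2bc3, H2bc9, H2bc18, H4c2 and H4f16. It was the farthest from them for H2ac1, H2bc1, H4c14 and H2aj. For H1f2, H2ab2, H2ac10, H2aw and H4c1 it lay between the other shPhf5a arrays. Of 10 embryonic stem cell markers 9 were above the median level of all genes (6.70 log2), among them Pou5f1, Sox2 and Nanog, and 8 fell in each knockdown. Their summed log2 signal lay between 102.0 and 104.6 in shPhf5a, between 101.5 and 101.8 in shPaf1 and between 106.8 and 107.1 in shControl. Of 8 fibroblast markers 1 rose in shPhf5a, 3 rose in shPaf1 (up to 0.96, Pdgfra) and none fell, 5 were lower in shPhf5a than in shPaf1, and 5 of the 8 were below the median level. Their summed log2 signal lay between 47.4 and 47.9 in shPhf5a, between 49.2 and 49.9 in shPaf1 and between 47.2 and 47.4 in shControl. Of 5 macrophage and blood markers 4 were below the median level, and the other, Cd68, fell by 0.42 on the log2 scale in shPhf5a and rose by 0.44 in shPaf1. Their sum lay between 31.0 and 31.8 in shPhf5a, between 32.4 and 33.0 in shPaf1 and between 31.8 and 32.6 in shControl. The part of these markers in the results was not tested. The RNA is of whole cultures, so that fewer cells of one type and less RNA per cell cannot be told apart.

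In shPhf5a more histone genes fell than rose in both classes. Of the 25 replication-dependent genes 11 fell, 5 rose and 9 did not pass the test (limma, adjusted p under 0.05), where 20.7% of all genes fell and 16.7% rose. Of the 23 variant genes 7 fell and 2 rose. The 5 replication-dependent rises were 3 without shPhf5a replicate 3, and the 2 variant rises were 1 without any 1 of the control arrays. The median log2 change was -0.15 for the replication-dependent class, -0.08 for the variant class and -0.03 for all genes. Calls are more frequent among bright genes, and 18 replication-dependent genes but only 6 variant genes were above the median level by their mean over all 9 arrays. Among these, 9 of 18 fell and 3 rose in the replication-dependent class and 6 of 6 fell in the variant class, beside 35.2% lower and 26.9% higher of all genes above the median level. Per array, the median of the 18 genes against the control mean was -0.17, -0.22 and -0.25 on the shPhf5a arrays, and that of the 6 variant genes was -0.54, -0.32 and -0.57.

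**Figure D1:**
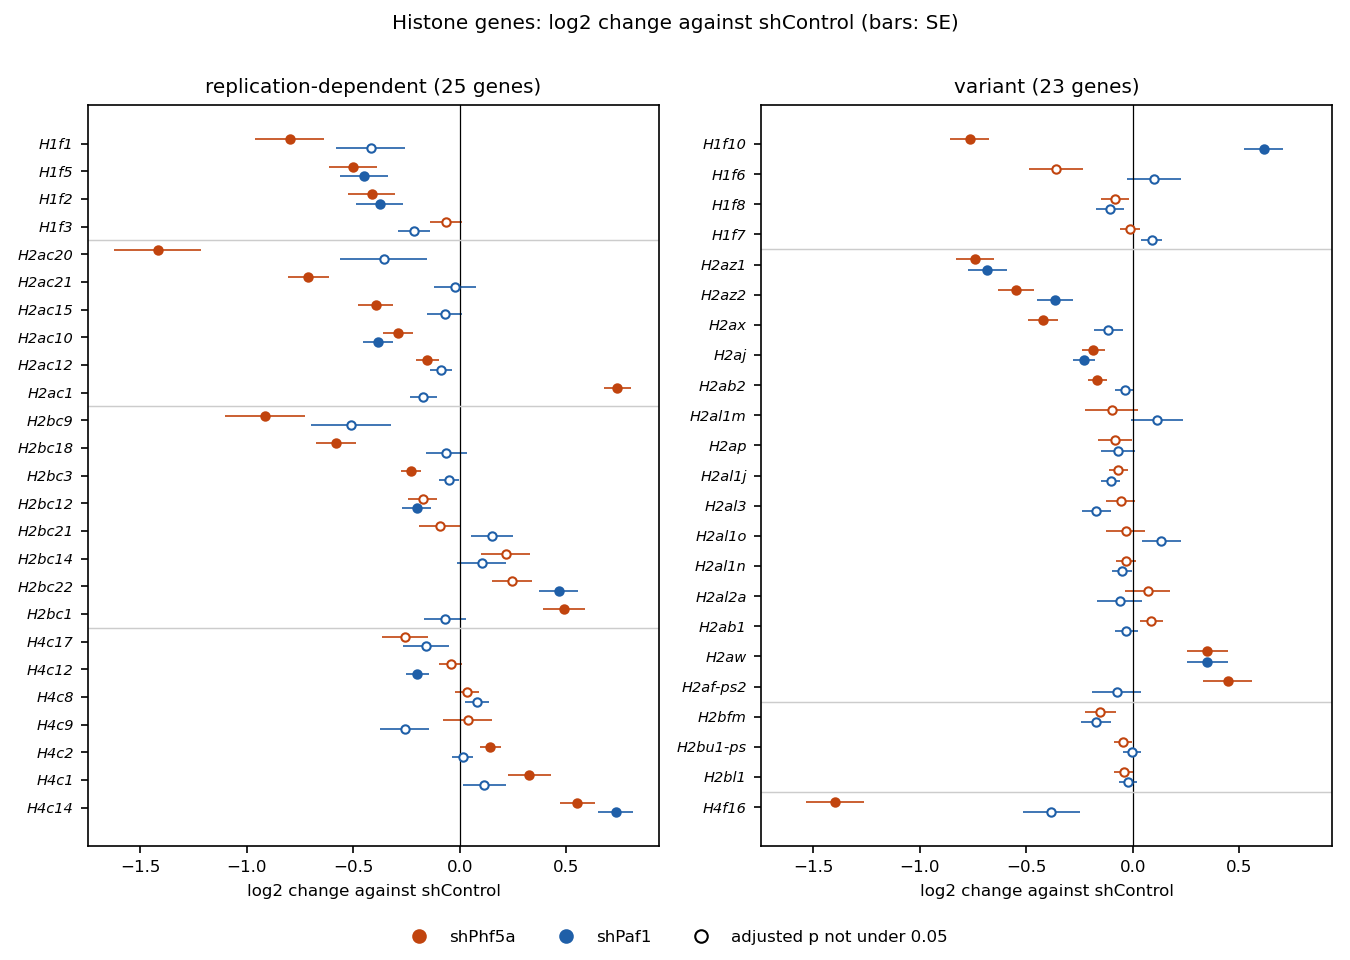
Log2 change of each of the 48 histone genes against shControl (horizontal axis) in shPhf5a (orange) and shPaf1 (blue), grouped by family from H1 at the top to H4 at the bottom, with bars for the SE and open symbols where the limma adjusted p was not under 0.05. In shPhf5a the falls run to -1.42 (H2ac20) and -1.40 (H4f16) and the rises to 0.74 (H2ac1), and most changes in shPaf1 are smaller.

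The linker histones H1, which bind the DNA between nucleosomes, were lower in shPhf5a for 3 of 4 replication-dependent genes, and none was higher. H1f1, a linker histone, had 5.74, 6.41 and 6.06 in shPhf5a, against 6.73, 7.07 and 6.81 log2 signal in shControl. The groups did not overlap, with shPhf5a replicate 2 nearest to the controls, and the change was -0.80 ± 0.16 (SE, adjusted p = 0.00308). H1f5, whose probe set is the brightest of the H1 genes, had 11.18, 11.49 and 11.39 in shPhf5a, against 11.81, 11.86 and 11.89 in shControl, a change of -0.50 (adjusted p = 0.00566). H1f2 had 10.37, 10.38 and 10.41 in shPhf5a, against 10.81, 10.80 and 10.79 in shControl, a change of -0.41 (adjusted p = 0.0135). Both sets of arrays are narrow for H1f2 and lie apart. H1f3 did not pass the test at -0.07 (adjusted p = 0.568).

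Of the 6 replication-dependent H2A genes 5 fell in shPhf5a and 1, H2ac1, rose. H2ac20 had 6.75, 7.52 and 6.63 in shPhf5a, against 8.23, 8.58 and 8.35 in shControl. All shPhf5a arrays were below all controls, with replicate 2 closest, and the change of -1.42 ± 0.20 (SE, adjusted p = 0.000438) is a 2.67-fold lower signal. Without shPhf5a replicate 2 it was -1.70. A probe set shared by H2ac18, H2ac19 and H2ac20 was far brighter and moved less, at 12.80, 12.91 and 12.76 in shPhf5a and 13.10, 13.07 and 13.08 in shControl, a change of -0.26 (adjusted p = 0.00396 over all probe sets). H2ac21, the H2A gene next to H2ac20 on chromosome 3 and transcribed towards it, had 9.82, 10.08 and 9.88 in shPhf5a, against 10.68, 10.66 and 10.58 in shControl. Its groups lay apart, and the change was -0.71 ± 0.10 (SE, adjusted p = 0.000311). A second, dim probe set of H2ac21 fell in shPhf5a by 0.34 on the log2 scale (adjusted p = 0.00855 over all probe sets) and also fell in shPaf1, as given below. H2ac15 (-0.39, adjusted p = 0.00355) and H2ac10 (-0.29, adjusted p = 0.00841) fell by less, and the dim H2ac12 passed the test at -0.15 in the fit reported here and in 5 of 17 other settings.

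H2ac1 and its neighbour H2bc1 encode the H2A and H2B forms best known from male germ cells, and they rose in shPhf5a. H2ac1 had 12.39, 12.61 and 12.50 in shPhf5a, against 11.75, 11.72 and 11.81 in shControl. Every shPhf5a array was above every control, and the change was 0.74 ± 0.06 (SE, adjusted p = 2.67e-05). H2bc1 had 9.11, 9.50 and 9.29 in shPhf5a, against 8.88, 8.88 and 8.68 in shControl, again with no overlap and a change of 0.49 ± 0.10 (SE, adjusted p = 0.00291). The starts of these genes lie 281 bases apart on chromosome 13 and point away from each other, so that the H2ac1 window printed above is part of the stretch between them. Of 8 germ cell markers measured, Dazl (1.52) and Ddx4 (0.78) rose and Zp3 and Tnp1 fell in shPhf5a, while Tnp1, Tnp2, Prm1, Gdf9 and Oosp1 were below the median level. The summed log2 signal of the 8 lay between 54.6 and 54.9 in shPhf5a and between 53.4 and 53.7 in shControl. Their part in the rise of H2ac1 and H2bc1 was not tested.

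Of the 8 replication-dependent H2B genes 3 fell in shPhf5a, 1 rose (H2bc1) and 4 did not pass the test. H2bc9 had 6.67, 7.56 and 6.91 in shPhf5a, against 7.97, 8.11 and 7.81 in shControl, a change of -0.92 ± 0.19 (SE, adjusted p = 0.00332). The groups did not overlap, but shPhf5a replicate 2 lay much nearer the controls, and without it the change was -1.17. H2bc18, on chromosome 3, had 9.02, 9.30 and 8.85 in shPhf5a, against 9.67, 9.61 and 9.65 in shControl. It too showed no overlap, with a change of -0.58 ± 0.10 (SE, adjusted p = 0.000937). H2bc3 fell by 0.23 on the log2 scale (adjusted p = 0.00352), and H2bc12, with the brightest H2B probe set, was at -0.17 (adjusted p = 0.0678).

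None of the 7 replication-dependent H4 genes fell in shPhf5a, and 3 rose. H4c14, an H4 gene of the chromosome 3 cluster, had 7.29, 7.52 and 7.37 in shPhf5a, against 7.0, 6.81 and 6.71 in shControl. The groups lay apart, and the change was 0.55 (adjusted p = 0.000509). H4c1 rose by 0.33 (adjusted p = 0.0293) and the dim H4c2 by 0.14 (adjusted p = 0.0469), and they passed the test in 12 and 6 of 17 other settings. H4c12, with the brightest probe set of the 48, had 13.17, 13.14 and 13.21 in shPhf5a, against 13.14, 13.23 and 13.28 in shControl, with overlapping groups and a change of -0.04 (adjusted p = 0.587).

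All 6 variant-class genes above the median level fell in shPhf5a. H4f16 encodes histone H4 from a single gene on chromosome 6, outside the clusters, and is counted with the variants by its symbol. It had 8.89, 9.18 and 8.51 in shPhf5a, against 10.16, 10.30 and 10.30 in shControl. All shPhf5a arrays lay below all controls, and the change of -1.40 ± 0.14 (SE, adjusted p = 4.77e-05) is a 2.64-fold lower signal. A second, dim probe set of H4f16 was at -0.25, with overlapping groups, and did not pass the test (adjusted p = 0.0911 over all probe sets). H1f10, the linker histone H1.X, had 9.37, 9.41 and 9.09 in shPhf5a, against 10.06 on each control array, a change of -0.77 ± 0.09 (SE, adjusted p = 0.000149). The deposited value of H1f10 was the same on all 3 control arrays, as it was for 205 of all genes, and no 2 arrays were the same throughout. A dimmer probe set shared by Gm5577 and H1f10 did not pass the test in either knockdown. It stood at 0.08 in shPhf5a (adjusted p = 0.463 over all probe sets) and at -0.03 in shPaf1 (adjusted p = 0.803). H2ax, the H2A.X variant that is phosphorylated at DNA breaks, had 12.41, 12.53 and 12.24 in shPhf5a, against 12.85, 12.77 and 12.83 in shControl, a change of -0.42 (adjusted p = 0.000936). Its groups did not overlap.

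Both H2A.Z genes, whose product marks promoters and enhancers, were lower. H2az2 had 10.86, 11.24 and 11.02 in shPhf5a, against 11.60, 11.55 and 11.61 in shControl, a change of -0.55 ± 0.08 (SE, adjusted p = 0.000644). H2az1 had 5.93, 6.10 and 6.02 in shPhf5a, against 6.63, 6.77 and 6.87 in shControl, a change of -0.74 ± 0.09 (SE, adjusted p = 0.000176). Neither gene's groups overlapped, and the single-gene probe set of H2az1 is dim. Of 3 histone variant genes outside the symbol rule, Cenpa, the centromeric H3, fell by 0.92 on the log2 scale (adjusted p = 0.000193), the dim Macroh2a2 fell by 0.66 (adjusted p = 0.0107) and Macroh2a1 rose by 0.29 (adjusted p = 0.0211). H2aj (-0.19) and H2ab2 (-0.17) also fell, while 2 dim members, H2aw (0.35) and the pseudogene H2af-ps2 (0.45), rose. The other 14 variant members, most of them known from testis or egg and all below the median level, did not pass the test, with changes between -0.36 (H1f6) and 0.09 (H2ab1). A second single-gene probe set of H2ab1 was at -0.13 (adjusted p = 0.293 over all probe sets). A brighter one, shared by H2ab1 and Gm14989, fell by 0.49 on the log2 scale in shPhf5a (adjusted p = 0.000341) and by 0.47 in shPaf1 (adjusted p = 0.000358).

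**Figure D2:**
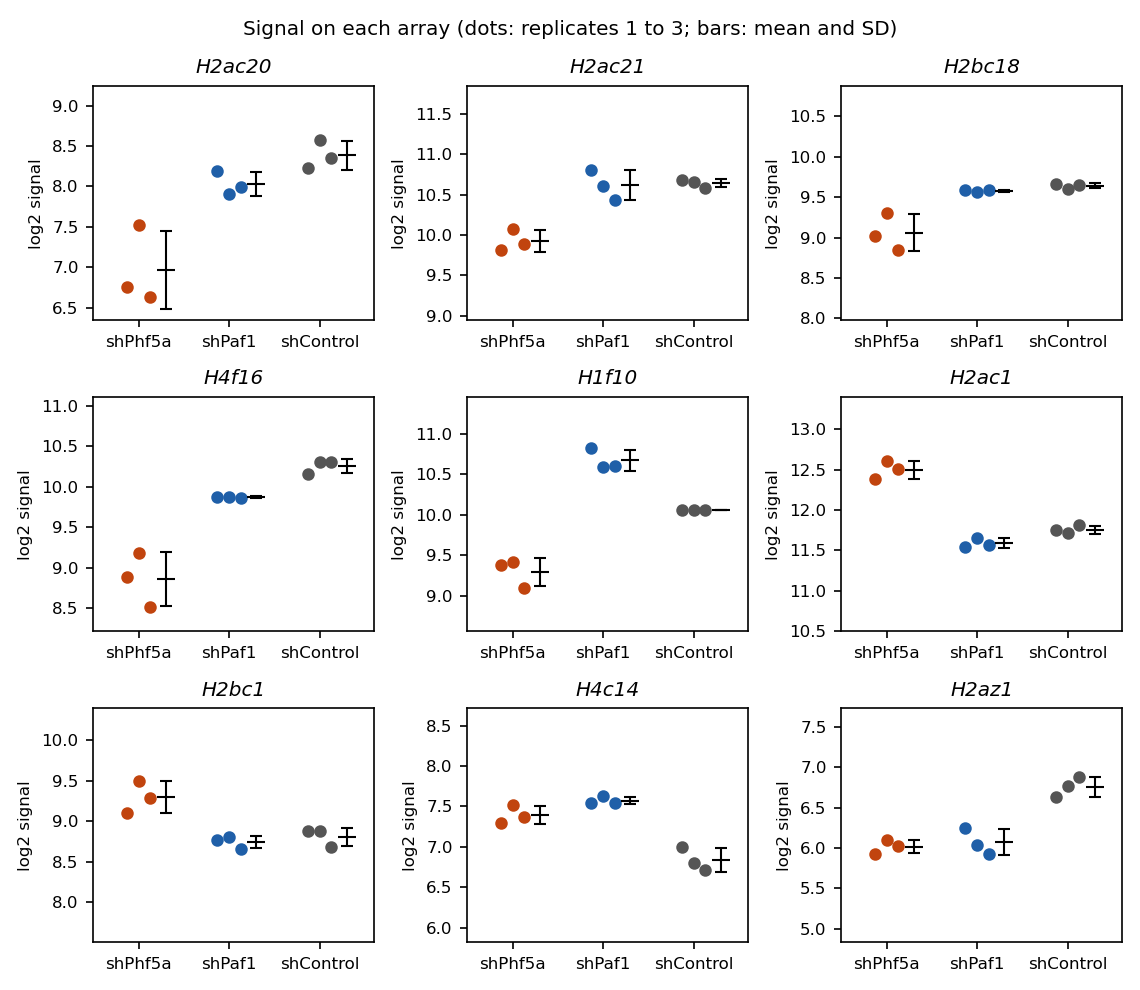
Log2 signal on every array for 9 histone genes, with 3 dots per group for replicates 1 to 3, a bar for the mean and its SD, and the same height of scale in each panel. H2ac20, H2ac21, H2bc18 and H4f16 are lowest on the shPhf5a arrays, H1f10 is below the controls in shPhf5a and above them in shPaf1, H2ac1 and H2bc1 are high in shPhf5a, and H4c14 and H2az1 lie on the same side of the controls in both knockdowns.

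Fewer histone genes passed the test in shPaf1 (12) than in shPhf5a (25). Of the 25 replication-dependent genes 5 fell and 2 rose, and of the 23 variant genes 3 fell and 2 rose, where 17.8% of all genes fell and 18% rose. These shares are near or below those of all genes. With each array centred on its median, 11 replication-dependent genes fell and 2 rose and 7 variant genes fell and 2 rose. The count of 5 lower replication-dependent genes was 2 without shControl replicate 3, 3 without shControl replicate 2 or shPaf1 replicate 3, 9 without shPhf5a replicate 1 and 11 without shPhf5a replicate 2, which enters through the shared estimate of the spread. The 3 variant falls were 5 without shPhf5a replicate 3, and the 2 variant rises were 1 without shPaf1 replicate 2, shControl replicate 1 or shControl replicate 3. The median log2 change was -0.09 for the replication-dependent class, -0.06 for the variant class and -0.01 for all genes.

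H1f10 rose in shPaf1, at 10.82, 10.59 and 10.60 against 10.06 on each shControl array, a change of 0.62 ± 0.09 (SE, adjusted p = 0.000482). All 3 shPaf1 arrays were above the controls, where all 3 shPhf5a arrays were below them. H4c14 had 7.55, 7.62 and 7.54 in shPaf1, against 7.0, 6.81 and 6.71 in shControl, a change of 0.73 ± 0.09 (SE, adjusted p = 8.28e-05). H2bc22 had 7.26, 7.41 and 7.38 in shPaf1, against 6.92, 6.70 and 7.04 in shControl, a change of 0.46 (adjusted p = 0.00277), and in shPhf5a it stood at 0.25 (adjusted p = 0.0626). The shPaf1 arrays of H4c14 and H2bc22 lay above all controls. H2aw, a dim H2A member, rose by 0.35 (adjusted p = 0.0155).

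Both H2A.Z genes fell in shPaf1. H2az1 had 6.25, 6.04 and 5.93 in shPaf1, against 6.63, 6.77 and 6.87 in shControl, a change of -0.68 ± 0.09 (SE, adjusted p = 0.000249). H2az2 had 11.25, 11.17 and 11.24 in shPaf1, against 11.60, 11.55 and 11.61 in shControl, a change of -0.36 (adjusted p = 0.00675). Neither overlapped the controls. H2aj, the H2A.J variant, fell by 0.23 on the log2 scale (adjusted p = 0.00719). Among replication-dependent genes, H1f5 (-0.45, adjusted p = 0.0106), H1f2 (-0.38, adjusted p = 0.0219), H2ac10 (-0.39, adjusted p = 0.0017), H2bc12 (-0.20, adjusted p = 0.039) and H4c12 (-0.20, adjusted p = 0.0136) fell. H1f2, H2bc12 and H4c12 passed the test in 14, 11 and 15 of 18 other settings, with adjusted p-values of 0.00104 to 0.0649, 0.0137 to 0.485 and 0.00403 to 0.103.

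H2ac20, H2ac21, H2bc18 and H4f16 did not pass the test in shPaf1. H2ac21 was at -0.02 (95% interval -0.24 to 0.19), with shPaf1 arrays at 10.81, 10.61 and 10.43, which overlapped the controls. Its second, dim probe set had 5.14, 5.09 and 4.93 in shPaf1 and 5.46, 5.28 and 5.30 in shControl, and fell by 0.29 on the log2 scale (adjusted p = 0.0181 over all probe sets). H2bc18 was at -0.06, with shPaf1 arrays at 9.59, 9.56 and 9.59. H2ac20, at 8.19, 7.91 and 7.99, changed by -0.36 (95% interval -0.82 to 0.10), and H4f16, at 9.88, 9.88 and 9.86, by -0.38 (adjusted p = 0.0518). For H2ac20, H2bc18 and H4f16 the shPaf1 arrays lay below every control. A second, dim probe set of H4f16 moved the other way in shPaf1, at 0.35 (adjusted p = 0.0244 over all probe sets), and stood at -0.25 in shPhf5a (adjusted p = 0.0911).

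Both comparisons above share their control arrays, so that each is described by its own values, and the direct comparison of the knockdowns does not use the controls as a base. In shPhf5a relative to shPaf1, 9 of the 48 genes were lower and 3 were higher, where 16.3% of all genes were lower and 12.7% higher. By class, 5 replication-dependent genes were lower and 2 higher (4 higher and 5 lower with centred arrays), and 4 variant genes were lower and 1 higher. Without shPhf5a replicate 2, 8 replication-dependent genes were lower, and without shPhf5a replicate 1, 4 were higher. H1f10 differed most, at 9.37, 9.41 and 9.09 in shPhf5a against 10.82, 10.59 and 10.60 in shPaf1, a difference of -1.38 ± 0.09 (SE, adjusted p = 7.89e-06). H2ac20 differed by -1.06 (adjusted p = 0.00335), H4f16 by -1.02 (adjusted p = 0.000405), H2ac21 by -0.69 (adjusted p = 0.000543; -0.05 and adjusted p = 0.754 for its second, dim probe set) and H2bc18 by -0.52 (adjusted p = 0.0026). For each of these the arrays of the knockdowns did not overlap. H2ax (-0.31, adjusted p = 0.00787), H2ac15 (-0.32, adjusted p = 0.014), H2bc3 (-0.18, adjusted p = 0.0175) and the dim testis linker histone H1f6 (-0.46, adjusted p = 0.0219) were also lower in shPhf5a. The germ-cell pair was higher in shPhf5a than in shPaf1, H2ac1 by 0.91 (adjusted p = 1.11e-05) and H2bc1 by 0.56 (adjusted p = 0.002), with shPaf1 arrays at 11.54, 11.66 and 11.57 for H2ac1 and 8.77, 8.80 and 8.65 for H2bc1. Of the 8 germ cell markers, 2 were also higher in shPhf5a than in shPaf1, Dazl by 0.91 and Ddx4 by 0.85. Of the others 1 was lower and 5 did not pass the test, and the median of the 8 was -0.005. H2af-ps2 was higher by 0.52 (adjusted p = 0.0069).

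Along the genome, neighbouring genes did not all move alike. Of the 25 replication-dependent genes 20 lie on chromosome 13 and 5 on chromosome 3. On chromosome 3, 3 of 5 genes fell and 1 rose in shPhf5a (median log2 change -0.58), none fell and 1 rose in shPaf1 (median -0.02), and the same 3, H2ac20, H2ac21 and H2bc18, were lower in shPhf5a than in shPaf1. H4c14, which lies between H2bc21 and H2bc18 there, rose in both knockdowns. On chromosome 13, 8 of 20 fell and 4 rose in shPhf5a (median -0.11), and 5 fell and 1 rose in shPaf1 (median -0.16). Of its 14 genes above the median level, 6 fell and 2 rose in shPhf5a, and 5 fell and 1 rose in shPaf1. Of all genes above the median level, 35.2% fell and 26.9% rose in shPhf5a, and 30.7% fell and 29.2% rose in shPaf1. The falls on chromosome 13 are thus near these shares, and its rises are below them. On this chromosome H2bc1 and H2ac1, at 1 end of the measured order, rose in shPhf5a, while their nearest measured neighbour H1f1 fell. H2ac12 and H2bc12, the other divergent pair found among the 43 genes with a promoter window, have starts 178 bases apart. They moved by -0.15 and -0.17 in shPhf5a. Members without a window were not searched for such pairs. H2bc21, the next measured gene after H2ac20 on chromosome 3, is one of them and was at -0.09 in shPhf5a (adjusted p = 0.523). Its probe set is dim (mean 5.37), so that a change could be understated.

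**Figure D3:**
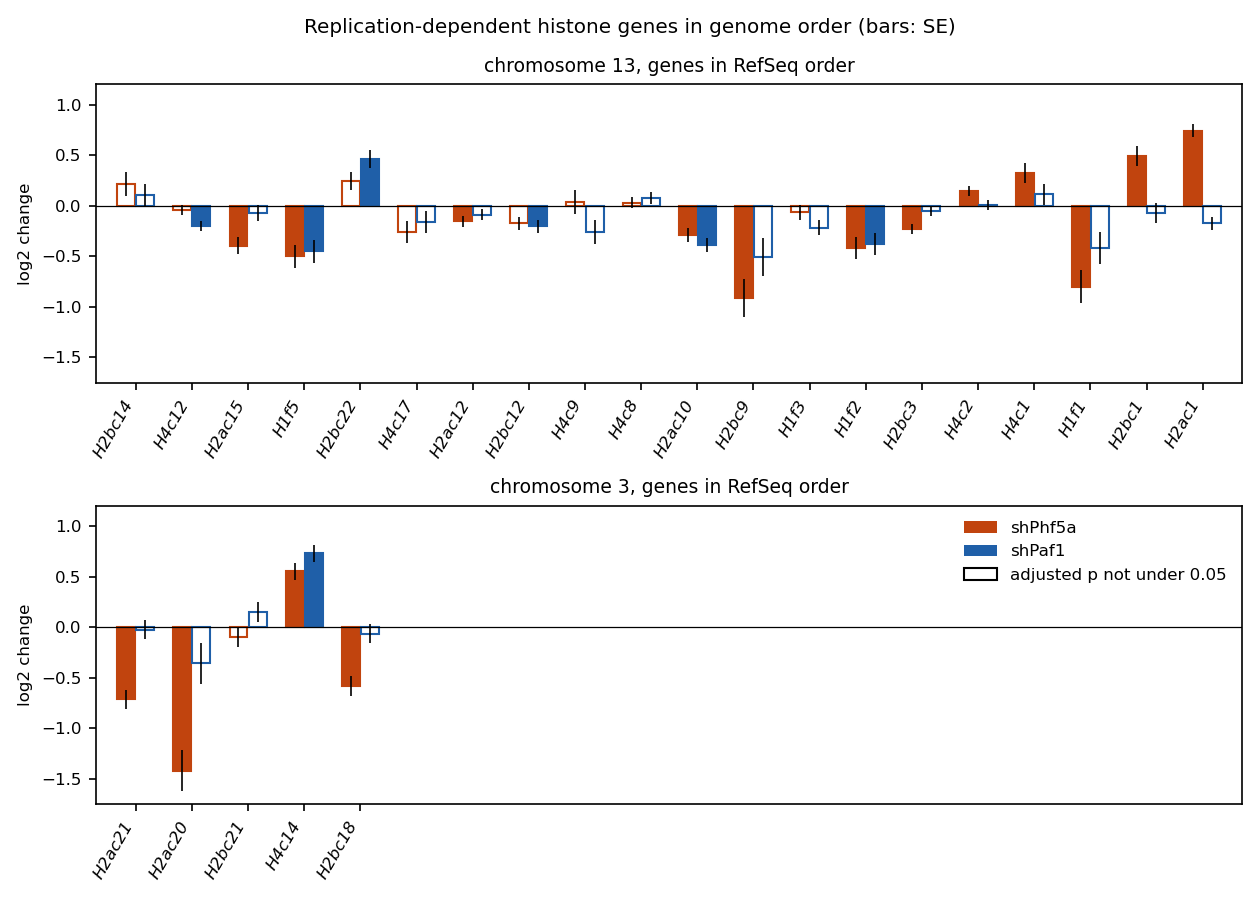
Log2 change against shControl (vertical axis, bars for the SE) of the 20 replication-dependent genes of chromosome 13 and the 5 of chromosome 3 in RefSeq order, in shPhf5a (orange) and shPaf1 (blue), open where the adjusted p was not under 0.05. On chromosome 3 the falls of H2ac21, H2ac20 and H2bc18 in shPhf5a stand beside a rise of H4c14 in both knockdowns, and on chromosome 13 the H2bc1 and H2ac1 pair rises in shPhf5a next to a fall of H1f1.

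The histone genes without a probe set of their own were read from probe sets that the platform assigns to several genes. There are 59 of them, 54 after leaving out 5 that lay within 0.05 log2 of another on every array, and they cover 21 different groups of genes. Of the 34 assigned mainly to replication-dependent genes, 12 rose and 4 fell in shPhf5a and 13 rose and 4 fell in shPaf1. Of all probe sets 15.0% rose and 16.7% fell in shPhf5a, and 14.4% rose and 15.9% fell in shPaf1. Over these 34 the split of rises and falls is thus turned round relative to the single-gene probe sets in both knockdowns, but the families differ. H3c genes enter only here. Of 20 shared H2A probe sets of both classes, 2 rose and 4 fell in shPhf5a and 1 rose and 5 fell in shPaf1. Of 8 for H2B, 1 rose in shPhf5a and 2 rose in shPaf1, and none fell. The 20 assigned mainly to variant genes held no rise, with 5 falls in shPhf5a and 3 in shPaf1. Of 12 for the H3c genes, which encode the replication-dependent H3, 6 rose and 1 fell in shPhf5a (median 0.51), and 5 rose and none fell in shPaf1 (median 0.26). Of 5 for H4 genes 3 rose in shPhf5a and 4 in shPaf1, with medians of 0.70 and 0.91.

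Probe sets for the same genes did not move alike, however. The 8 assigned to the same 8 H3c genes changed by -0.48 to 1.37 in shPhf5a and by -0.32 to 1.21 in shPaf1. The brightest of the 8 had 10.03, 10.07 and 10.03 in shPhf5a, 9.99, 10.07 and 10.02 in shPaf1 and 10.05, 10.02 and 10.05 in shControl. It did not pass the test in either knockdown, at 0.01 and -0.01. Another of the 8 had 10.51, 10.32 and 10.46 in shPhf5a, 9.58, 9.63 and 9.67 in shPaf1 and 9.42, 9.41 and 9.33 in shControl, a rise of 1.04 in shPhf5a (adjusted p = 9.09e-06) and of 0.25 in shPaf1 (adjusted p = 0.0106). The 4 assigned to the same 13 H4 genes changed by 0.05 to 1.90 in shPhf5a and by 0.23 to 1.47 in shPaf1, and the 7 assigned to the same 10 H2A genes by -1.02 to 1.26 and by -0.66 to 0.62. The 6 shared probe sets with a mean above 12 changed by -0.26 to 0.03 in shPhf5a and by -0.33 to -0.01 in shPaf1, and none of them rose. Probe positions and gene copies could not be separated with these values, so that no direction is given for H3c genes as a group.

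**Figure D4:**
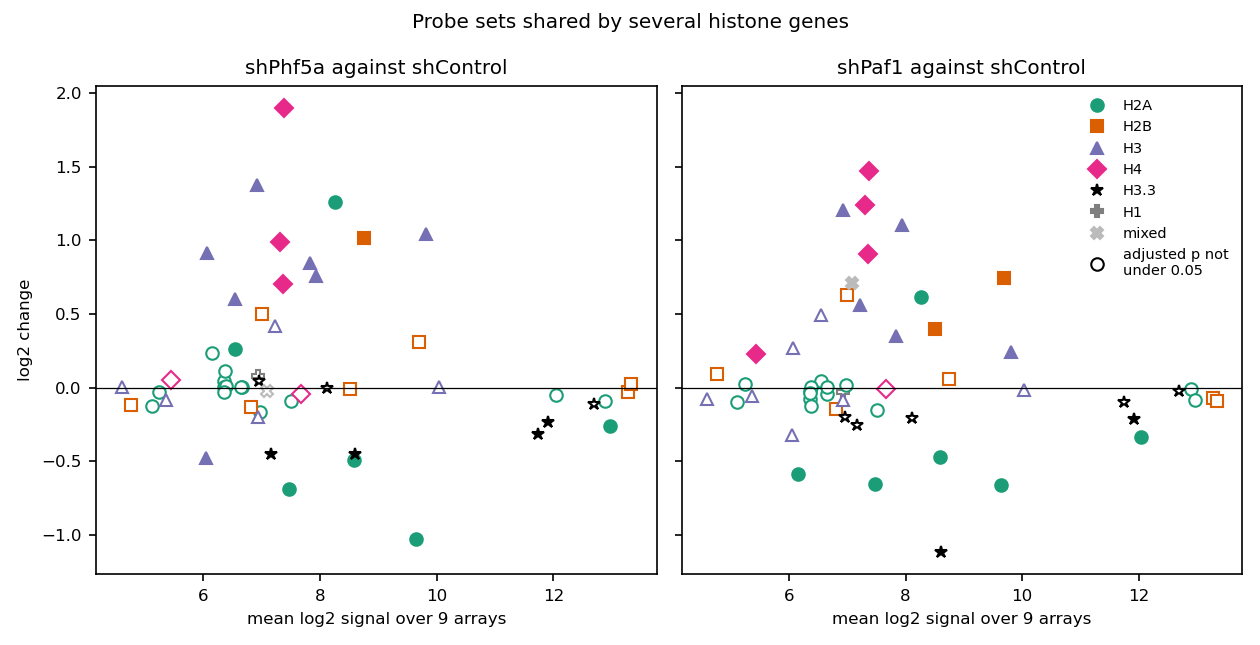
Log2 change against shControl (vertical axis) of the 54 probe sets assigned to several histone genes, plotted by mean log2 signal over 9 arrays, for shPhf5a (left) and shPaf1 (right), with symbols for the histone family and open symbols where the adjusted p over all probe sets was not under 0.05. The rises, up to 1.90 in shPhf5a and 1.47 in shPaf1, lie at signals below 10, and the 6 probe sets above 12 stay between -0.33 and 0.03.

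Histone H3.3, the replacement H3 encoded by H3f3a and H3f3b, is represented by 7 shared probe sets. Of these 4 fell and none rose in shPhf5a (median -0.23), and 2 fell and none rose in shPaf1 (median -0.20). One assigned to 5 genes, H3f3a and H3f3b among them, had 8.46, 8.76 and 8.81 in shPhf5a, 8.23, 8.04 and 7.77 in shPaf1 and 9.15, 9.13 and 9.11 in shControl. It was below all controls in both knockdowns, by -0.45 in shPhf5a (adjusted p = 0.02) and -1.11 in shPaf1 (adjusted p = 0.000132). The brightest of the 7, assigned to the same 5 genes, had 12.59, 12.67 and 12.63 in shPhf5a, 12.75, 12.67 and 12.72 in shPaf1 and 12.72, 12.76 and 12.74 in shControl, and did not pass the test at -0.11 and -0.02. Another of the same 5 genes (mean 11.91) was at -0.23 in shPhf5a (adjusted p = 0.0134) and -0.21 in shPaf1 (adjusted p = 0.0198). A probe set shared by H3f3a and Gm12657 (mean 11.74) was at -0.32 in shPhf5a (adjusted p = 0.000673) and -0.10 in shPaf1 (adjusted p = 0.139).

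Genes that make, process and deposit histones were read from lists. Nearly all of them are above the median level, where 35.2% of all genes fell and 26.9% rose in shPhf5a and 30.7% fell and 29.2% rose in shPaf1. Slbp, the stem-loop binding protein, had 9.80, 10.13 and 9.98 in shPhf5a, 10.49, 10.37 and 10.33 in shPaf1 and 10.45, 10.48 and 10.52 in shControl. It fell by 0.51 on the log2 scale in shPhf5a (adjusted p = 0.000739), was at -0.09 in shPaf1 (adjusted p = 0.485), and was lower in shPhf5a than in shPaf1 (-0.43, adjusted p = 0.00308). Of 21 measured genes of histone mRNA synthesis and processing, Slbp included, 9 fell and 3 rose in shPhf5a (median -0.21), and 8 fell and 5 rose in shPaf1 (median -0.09). These are 42.9% lower and 14.3% higher in shPhf5a and 38.1% lower and 23.8% higher in shPaf1, and 9 and 8 genes did not pass the test. Mif4gd, the Slbp partner in translation of histone RNAs, fell by 0.70 in shPhf5a and by 0.36 in shPaf1, and Lsm10, a subunit of the U7 particle that cuts histone RNA ends, fell by 0.45 and by 0.29. Cpsf3, the nuclease of that cut, fell by 0.45 in shPhf5a and by 0.78 in shPaf1, whereas Sympk, a scaffold of the same complex, rose by 1.05 in shPaf1 and stood at 0.12 in shPhf5a (adjusted p = 0.16). Zfp473, a zinc finger protein of the same processing step, fell by 0.59 in shPaf1. Tut4 and Tut7, enzymes that add uridines to RNA ends, rose in both knockdowns, by 0.82 and 0.59 in shPhf5a and by 0.52 and 0.97 in shPaf1. Hinfp, a transcription factor of H4 genes, fell by 0.25 in shPhf5a (adjusted p = 0.0468).

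Of 33 chaperone and deposition genes 15 fell and 7 rose in shPhf5a (median -0.14), and 12 fell and 10 rose in shPaf1 (median -0.09). The shares are 45.5% lower and 21.2% higher in shPhf5a and 36.4% lower and 30.3% higher in shPaf1, the last pair close to that of all genes above the median level. Chaf1b, a subunit of the CAF-1 complex that loads H3 and H4 behind the replication fork, fell by 1.02 in shPhf5a and by 0.34 in shPaf1. Nap1l4, a chaperone of H2A and H2B, fell by 0.72 in shPhf5a and was at -0.09 in shPaf1 (adjusted p = 0.415). Anp32e, which removes H2A.Z, fell by 0.71 in shPhf5a. Srcap, the motor of the complex that inserts H2A.Z, rose by 0.84 in both knockdowns, and its partner subunit Ruvbl1 fell by 0.71 in shPhf5a and by 0.43 in shPaf1. In shPaf1, Ubn1 of the H3.3 loading HIRA complex rose by 0.87, Ep400, the motor of a related complex, by 0.82 and the elongation factor and histone chaperone Supt6 by 0.70, and Asf1a, which hands H3 and H4 to both loading complexes, fell by 0.67.

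S-phase genes fell in both knockdowns. Of 25 measured S-phase and cell cycle genes 21 fell and 1 rose in shPhf5a (median -0.51), and 15 fell and 2 rose in shPaf1 (median -0.40). All 25 are above the median level, so that the same shares of all such genes apply. Their summed log2 signal lay between 256.6 and 266.3 in shPhf5a, between 265.4 and 266.6 in shPaf1 and between 274.3 and 274.9 in shControl, and the highest shPhf5a sum is that of replicate 2. Tk1, the thymidine kinase of S phase, had 8.44, 9.06 and 8.42 in shPhf5a, 9.43, 9.41 and 9.37 in shPaf1 and 10.45, 10.35 and 10.34 in shControl. It fell by 1.74 on the log2 scale in shPhf5a and by 0.98 in shPaf1. Gins2, a subunit of the replicative helicase, fell by 1.39 in shPhf5a and by 0.45 in shPaf1, and Ccne1, cyclin E1, by 1.18 and by 0.59. The part of these genes in the changes of the histone genes was not tested.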

How the data were processed

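Per the labels' protocols, total RNA of mouse embryonic stem cells was labelled with a whole-transcript kit and hybridised to 9 Affymetrix arrays. The values are log2 signals per probe set as deposited by the authors. How they were normalized, with which software and on which log base is not given in the sources, and log2 was inferred from the range of 4.35 to 13.7. If the base were another, fold sizes would differ and calls would not. Array medians were 6.22 to 6.31, no scan batch was examined, and the number of arrays limits the precision.

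Of 33793 probe sets, 23521 had 1 symbol in the platform's annotation, 1814 several, and 8458 were not listed. The brightest single-symbol probe set was kept for each of 22180 genes. All 48 histone genes were found in RefSeq by gene ID under the same symbol. Groups came from the sample titles. limma 3.58.1 in R 4.3.3 was fitted with 1 mean per group over all 9 arrays, and p-values were adjusted by Benjamini-Hochberg over all genes, at 0.05. Shared probe sets, and second probe sets of a gene, were read from the same fit over all probe sets. Lists are described by counts and medians. The members, lists and tests were chosen with earlier results of these data known.

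Named were Phf5a, Paf1, Slbp, fixed variant genes (H2ax, H2az1, H2az2, H1f10), the brightest gene of each family, the 10 largest called rises and falls of a comparison, the 6 largest differences between knockdowns and up to 5 called genes of each other list. The promoter windows, the shared probe sets, the neighbours, Nap1l4's and Sympk's values where not called, H1f3, H2ab1, H2ab2, H2ac12 and the markers that were not called were chosen after values were seen. Motifs were searched by exact letters on both strands in 300-base RefSeq windows of build GRCm38.p6, without using the array's own coordinates.

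Simulated data with the means and spread of shPhf5a and shControl for 22180 genes were used to test the fit. A change of 0.5 was called in 74 of 100 genes, a change of 1 in 100 of 100, and 12 of 21980 unchanged genes were called. Alternatives were quantile normalization, centring, a filter at the median level, the mean over a gene's probe sets, adjustment over all probe sets, array weights, eBayes with trend and robust, fits restricted to 6 arrays, a replicate block and leaving out each array.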

Additional observations from a re-analysis of the deposited data

Results flagged for a closer look

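H1f10, the linker histone H1.X, moved in opposite directions in the knockdowns by its single-gene probe set. It fell by 0.77 on the log2 scale in shPhf5a (limma adjusted p = 0.000149) and rose by 0.62 in shPaf1 (adjusted p = 0.000482). In shPhf5a minus shPaf1 it differed by -1.38 (adjusted p = 7.89e-06). All 3 shPhf5a arrays lay below the controls and all 3 shPaf1 arrays above them. Over the 18 other settings the change lay between -0.87 and -0.66 in shPhf5a and between 0.54 and 0.66 in shPaf1, and it passed the test in each of them. A dimmer probe set, shared by Gm5577 and H1f10 (mean 6.93), did not move this way. It stood at 0.08 in shPhf5a (adjusted p = 0.463 over all probe sets) and at -0.03 in shPaf1 (adjusted p = 0.803). In shPhf5a minus shPaf1 it was at 0.11 (adjusted p = 0.331).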

How the results depend on the processing

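Of the called changes of single histone genes, 18 of 25 in shPhf5a, 8 of 12 in shPaf1 and 9 of 12 between the knockdowns passed the test in every alternative that could be run. Counts of genes in shPhf5a moved little except for rises: 3 replication-dependent rises (against 5) in a fit restricted to the 6 arrays of both groups, and 0 variant rises (against 2) among genes above the median level. That filter leaves out the dim H2aw and H2af-ps2, so that its lower counts of variant rises, here and in the comparisons below, were fixed by their level. Leaving out 1 array gave 3 to 5 rises and 10 to 11 falls of replication-dependent genes in shPhf5a and 1 to 2 and 6 to 8 of variant genes. In shPaf1 the 5 replication-dependent falls were 11 with centred arrays, 8 among genes above the median level, 10 with array weights, 11 in the fit of 6 arrays and 2 to 11 with 1 array left out. The 3 variant falls were 7 with centring, 5 with a trended variance, with array weights and in the fit of 6 arrays, and 3 to 5 with 1 array left out, and the 2 variant rises were 1 among genes above the median level and 1 to 2 with 1 array left out. Between the knockdowns the 2 replication-dependent genes higher in shPhf5a were 4 with centring, among genes above the median level, with a trended variance and with array weights, and 2 to 4 with 1 array left out. The 5 lower ones were 4 to 8, the 1 variant gene that was higher was 0 among genes above the median level and 1 to 2 with 1 array left out, and the 4 lower ones were 3 to 5. Shared probe sets in place of single-gene ones, an alternative chosen after seeing the data, gave 12 rises and 4 falls (replication-dependent) and 0 rises and 5 falls (variant) in shPhf5a. It gave 13 rises and 4 falls, and 0 rises and 3 falls, in shPaf1, and 8 higher and 6 lower, and 1 higher and 1 lower, between the knockdowns. Ep400 changed sign in shPhf5a with the mean over its probe sets, at -0.026 (adjusted p = 0.745), and Ep400 is at 0.34 in the fit reported. The causes were not tested. Arrays with the same replicate number did not deviate together (r of -0.06 to 0.11 over 9 pairs, 1 pair above 0.1), and with the replicate number as a block 10 replication-dependent genes fell and 5 rose in shPhf5a, and 5 fell and 2 rose in shPaf1. Changes of dim genes may be understated.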
